A study of Caenorhabditis elegans with 4 samples.

Results

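The 27 genes of the autophagy machinery in C. elegans adults are described here, in a control and in eggd-1 mutants. They were chosen by a rule on names, set with earlier results of these data known. The rule took every row of the deposited table whose locus name begins with atg, epg or lgg and a number. Together with unc-51, bec-1, vps-34 and sqst-1, this made 27 of 46934 genes. RNA was taken from whole synchronized adults grown at 20 °C on E. coli OP50, about 50000 worms a sample. The control was labelled with the genotype pgl-1::RFP, in which the P granule protein PGL-1 carries a red fluorescent tag. The other group was labelled as a null mutant of eggd-1, which encodes a LOTUS domain protein that keeps germ granules next to the nucleus. The labels do not say whether the mutant carries the tag as well. Each group had 2 libraries with 17603513 to 30812591 counts each. No label says that the libraries came from separate cultures, although the study calls them biological replicates, so p-values measure the spread between these libraries. Transcript of eggd-1 (listed as mip-1) fell from 2099 and 2270 normalized counts in the control libraries to 6.63 and 3.67 in the mutant libraries, in the direction of the labels. Normalized counts are counts divided by a size factor of the library.

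Autophagy delivers cytoplasm, organelles and protein aggregates to the lysosome. A kinase complex starts the process, vesicles and lipids are supplied to a cup-shaped membrane, a lipid kinase complex marks that membrane with phosphatidylinositol 3-phosphate (PI3P), and a ubiquitin-like conjugation system attaches Atg8 proteins to it. Cargo receptors bind Atg8, and the closed autophagosome then fuses with lysosomes. In C. elegans embryos, autophagy removes germ granule proteins that are left in somatic cells, and several epg genes were found through that process. The bHLH transcription factor HLH-30, the worm relative of mammalian TFEB, is known as an activator of autophagy and lysosomal genes. The study examined HLH-30 in eggd-1 mutants, and the question addressed here is how the transcripts of the machinery itself differed between the genotypes.

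Several transcripts of the machinery were lower in eggd-1 mutants, and none changed by 4-fold. Of the 27 genes, 11 (40.7%) fell and 1, the cargo receptor gene sqst-1, rose (DESeq2 over all rows, Benjamini-Hochberg adjusted p under 0.05). Over the 16773 rows with an adjusted p-value, 20.4% fell and 18.6% rose. The genes that fell were lgg-3, epg-2, bec-1, lgg-1, atg-3, epg-9, epg-4, atg-16.2, vps-34, epg-7 and atg-7, by 0.33 to 0.86 on the log2 scale. The median log2 fold change of the 27 genes was -0.33, against 0.005 over all tested rows. Over the 9504 tested rows whose mean was 100 normalized counts or more the median was -0.12, and 31.6% of them fell and 18.9% rose. Values below 0 were found for 24 of the 27 genes (88.9%), against 49.7% of all tested rows and 57.5% of those with a mean of 100 or more. Changes were small, with 20 of the 27 genes within 1.5-fold, a range that held 53.3% of all tested rows and 64.9% of those with a mean of 100 or more. Because the animals were sequenced whole, fewer cells of a type and less RNA per cell cannot be told apart.

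Both eggd-1 libraries lay below both control libraries for 22 genes and above them for 2 (unc-51 and sqst-1), while the groups overlapped for atg-2, atg-18 and atg-4.2. Over all tested rows, 38.9% lay below and 38.5% above, and over those with a mean of 100 or more, 48.4% and 32.5%. Centred on each gene's mean, the library medians of log2 normalized counts were 0.20 and 0.16 in the control libraries and -0.13 and -0.21 in the eggd-1 libraries, with a pooled SD within groups of 0.045. Thus the groups were further apart than the libraries of a group. The number of genes past the threshold depended on single libraries. It was 10 lower genes without control replicate 2, 8 without control replicate 1, 6 without eggd-1 replicate 1 and 2 (bec-1 and epg-2) without eggd-1 replicate 2. Of these 4 fits, sqst-1 was past the threshold in the one without control replicate 2. Calls over the whole table dropped as well, to 10.4% lower without eggd-1 replicate 2. A fit without an eggd-1 library takes its spread from the control pair, whose counts differed more (chi-square per degree of freedom 26.8, against 4.89 for the eggd-1 pair, at unequal depth). Median log2 fold changes in these 4 fits ran from -0.39 to -0.27.

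**Figure D1:**
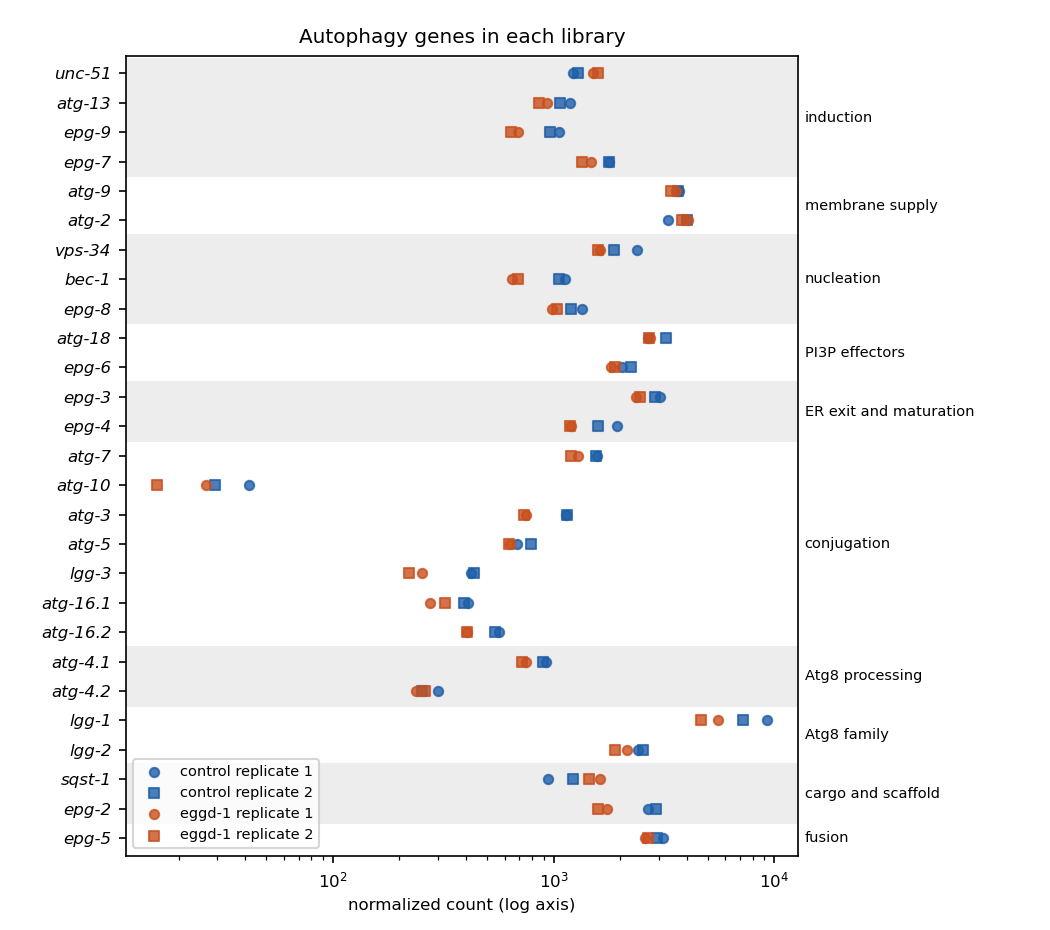
Normalized counts (log axis) of the 27 autophagy genes in the 2 control libraries (blue) and the 2 eggd-1 libraries (orange), ordered from induction to fusion. For 22 genes both orange points lie left of both blue points, and for unc-51 and sqst-1 they lie right of them.

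**Figure D2:**
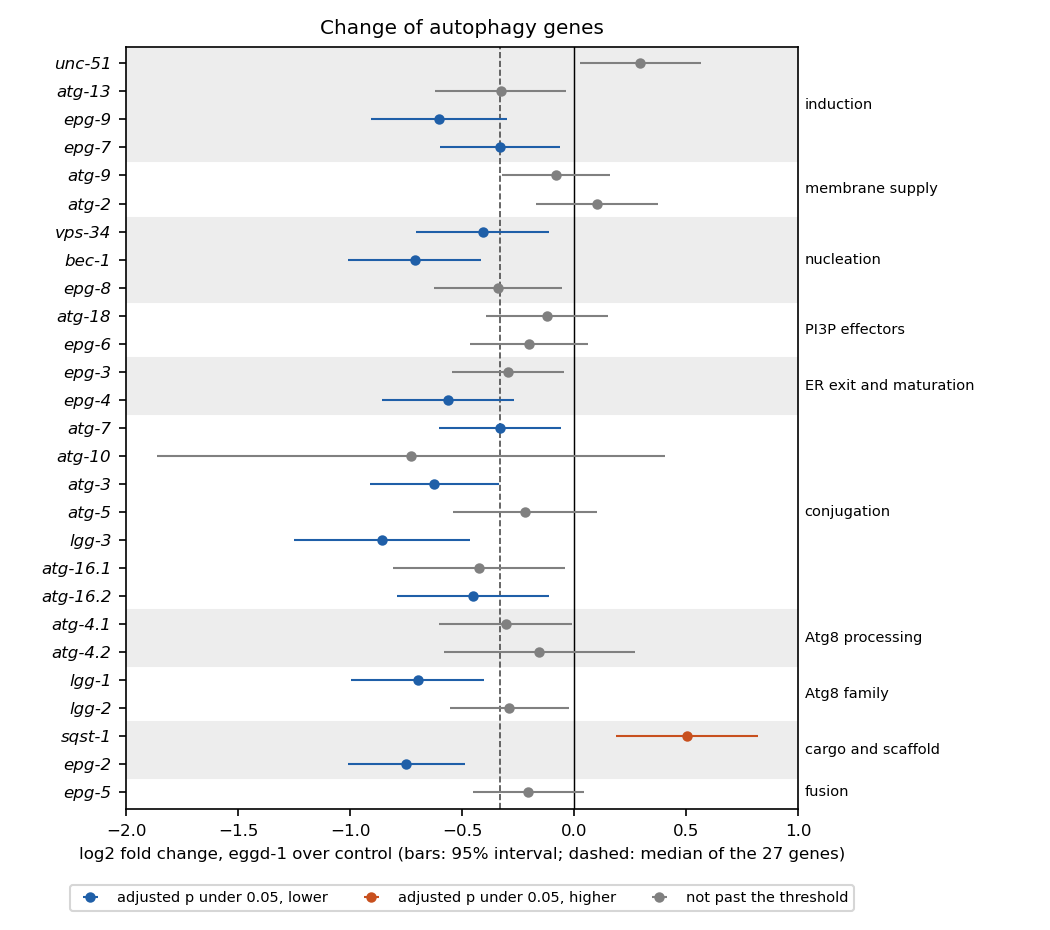
Log2 fold change of each autophagy gene, eggd-1 over control, with the 95% interval from the DESeq2 standard error and the median of the 27 genes as a dashed line. The 11 genes that fell (blue) lie in steps from induction to cargo binding, 4 of them in conjugation. Membrane supply, PI3P effectors, Atg8 processing and fusion hold none of them. The gene that rose is sqst-1 (orange).

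Markers of several cell types differed between the groups. Summed over the listed markers, normalized counts of 12 zygotic embryo genes were 3585 and 3333 in the control libraries and 2098 and 1892 in the eggd-1 libraries. Over 11 sperm genes the sums were 656 and 748 against 2299 and 2068, over 7 body muscle genes 120977 and 152494 against 228805 and 230409, and over 8 neuron genes 4520 and 5458 against 8451 and 8163. Germ line markers (11 genes) ran from 56957 to 64352 in the control and from 74409 to 81892 in eggd-1, and oocyte markers (12 genes) from 170902 to 212489 and from 208380 to 228552. Intestine markers (8 genes) ran from 70774 to 81969 and from 106920 to 108386, and hypodermis markers (7 genes) from 10285 to 16871 and from 18332 to 19002. No marker was at 0 in all libraries. By single markers, 8 sperm, 6 neuron, 4 muscle and 3 hypodermis genes rose and 3 embryo genes fell, whereas 4 rose and 2 fell among the germ line markers, 3 and 2 among the oocyte markers and 4 and 2 among the intestine markers. The part of these shifts in the values of the autophagy genes was not tested.

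Levels per exon length placed the Atg8 family first. The level of lgg-1 was 11673 ± 2075 normalized counts per kilobase of merged exons in the control (SD, n = 2), followed by lgg-2 at 2382 ± 102, atg-18 at 1642 ± 219 and epg-6 at 1398 ± 95.9. At the other end were atg-16.2 (295 ± 7.61), atg-16.1 (216 ± 6.31), atg-4.2 (164 ± 19.3) and atg-10 (67.3 ± 16.4). The intervals of mean ± SD met for atg-18 and epg-6, whereas lgg-1 and lgg-2, or atg-16.2 and atg-16.1, were apart by more than their SDs. In eggd-1 mutants the same 4 genes led and the same 4 came last. Within the middle of the order, sqst-1 moved from rank 20 to rank 11, bec-1 from rank 12 to rank 19 and lgg-3 from rank 8 to rank 16.

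**Figure D3:**
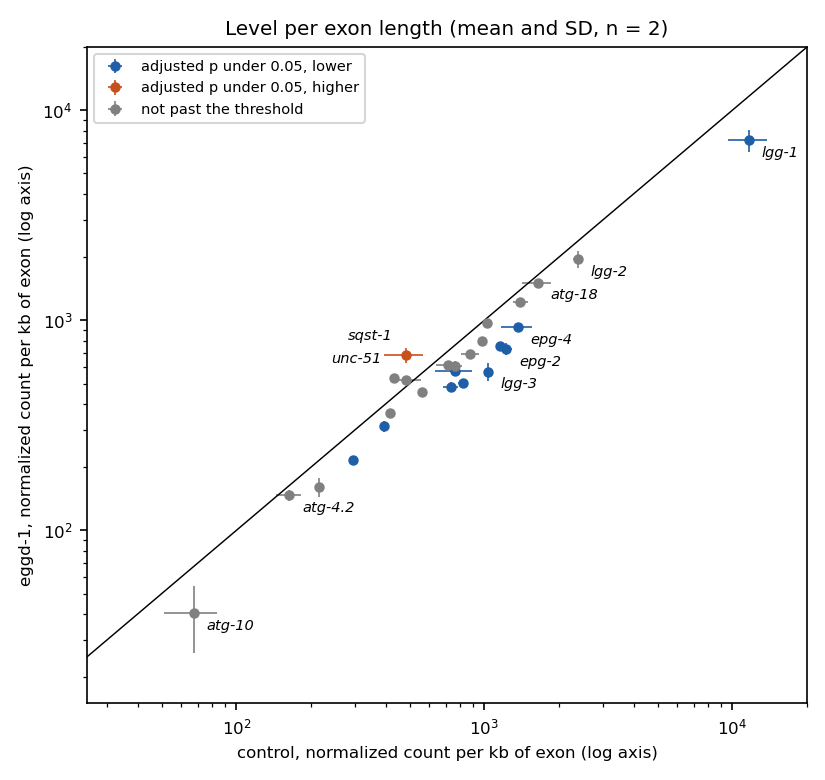
Mean level in eggd-1 against mean level in the control, in normalized counts per kilobase of merged exons on log axes, with bars for the SD (n = 2) and a line of equal level. Most genes lie below the line, lgg-1 stands far above the rest in both groups, and sqst-1 and unc-51 lie above the line.

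Induction came first in the order of steps. The kinase gene unc-51 (WBGene00006786, WBcel235 chromosome V, 19995986 to 20004485), the worm ULK1 relative, had 1224 and 1289 normalized counts in the control and 1502 and 1584 in the mutant. The groups did not overlap, but the log2 fold change of 0.30 (95% interval 0.03 to 0.57) did not pass the threshold (DESeq2 adjusted p = 0.0742). By the edgeR quasi-likelihood test it did, with an adjusted p of 0.019, and over the 11 alternatives the adjusted p ran from 0.019 to 0.463. The partners of the kinase had values on the other side of 0. Transcript of epg-9 (WBGene00022078, chromosome IV, 2601141 to 2607464), which encodes the ATG101-like subunit, fell from 1061 and 964 to 693 and 638 normalized counts (log2 fold change -0.60, SE 0.16, DESeq2 adjusted p = 0.000558). Without eggd-1 replicate 2 its value was -0.54 (adjusted p = 0.106). The scaffold gene epg-7 (WBGene00020334, chromosome X, 7334714 to 7340268), related to yeast Atg11, fell from 1774 and 1776 to 1474 and 1347 (-0.33, SE 0.14, DESeq2 adjusted p = 0.04). This call was near the threshold and was lost in each fit that left out a library, with values of -0.40 to -0.27. It was also lost with library totals as size factors (DESeq2 adjusted p = 0.055), without independent filtering (0.0612) and with the replicate block (0.105). The kinase cofactor gene atg-13 had a log2 fold change of -0.33 (95% interval -0.62 to -0.03, DESeq2 adjusted p = 0.0679, edgeR adjusted p = 0.0366).

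The 2 membrane supply genes had the values closest to 0. For atg-9, whose product is the transmembrane protein of the seed vesicles, the libraries had 3703 and 3678 normalized counts in the control and 3573 and 3398 in the mutant (-0.08 on the log2 scale, 95% interval -0.32 to 0.16). For atg-2, which encodes a lipid transfer protein, they had 3286 and 4038 in the control and 4054 and 3811 in eggd-1 (0.10, 95% interval -0.17 to 0.38). The sign of the atg-2 value turned without control replicate 1 (-0.049). The lower end of the atg-9 interval was close to the median of the 27 genes. A noncoding RNA gene overlaps atg-2 on the same strand, as one does atg-4.1.

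Nucleation is carried out by the class III PI3 kinase VPS-34 with Beclin 1, EPG-8 (the ATG14 relative) and VPS-15. The Beclin 1 gene bec-1 (WBGene00000247, chromosome IV, 5661141 to 5664425) fell from 1132 and 1058 normalized counts to 651 and 687 (log2 fold change -0.71, SE 0.15, DESeq2 adjusted p = 2.23e-05), and it passed the threshold under each of the 11 alternatives, with values from -0.78 to -0.67. The groups were clearly apart. The kinase gene vps-34 (WBGene00006932, chromosome I, 6028486 to 6033458) fell from 2391 and 1880 to 1623 and 1596 (-0.41, SE 0.15, DESeq2 adjusted p = 0.0217). Here control replicate 1 stood high, and without it the log2 fold change was -0.23 (adjusted p = 0.21). The call was also lost without either eggd-1 library, with values of -0.42 and -0.39, and with the replicate block (DESeq2 adjusted p = 0.0528). For epg-8 the value was -0.34 (95% interval -0.63 to -0.05), just outside the threshold (DESeq2 adjusted p = 0.0516). It passed by edgeR (adjusted p = 0.0278), among rows with a mean of at least 10 (0.0446) and without control replicate 2 (0.0301). Outside the named families, vps-15, the regulatory subunit of the same complex, rose from 2639 and 3091 to 3400 and 4012 normalized counts (0.37, SE 0.14, DESeq2 adjusted p = 0.0273). Its value was 0.25 without control replicate 1 (adjusted p = 0.147), 0.48 without eggd-1 replicate 1 (0.127) and 0.25 without eggd-1 replicate 2 (0.466), all outside the threshold. The difference between vps-15 and its partners was not tested.

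The WIPI-like proteins ATG-18 and EPG-6 bind PI3P. For atg-18, normalized counts were 2680 and 3239 in the control and 2740 and 2711 in the mutant (-0.12 on the log2 scale, 95% interval -0.39 to 0.15), and the groups overlapped. Its value was 0.0062 without control replicate 2. For epg-6 they were 2031 and 2238 against 1818 and 1896 (-0.20, 95% interval -0.46 to 0.06). The log2 ratio of atg-18 to epg-6 was 0.40 and 0.53 in the control libraries and 0.59 and 0.52 in the eggd-1 libraries, which overlapped. Among genes for the ER membrane proteins that let the autophagosome mature, epg-4 (WBGene00018150, chromosome III, 7182167 to 7184054), the EI24 relative, fell from 1939 and 1582 to 1195 and 1188 (-0.56, SE 0.15, DESeq2 adjusted p = 0.000912). Without either eggd-1 library the value was near the same (-0.57 and -0.55) but outside the threshold (adjusted p = 0.0839 and 0.0873). Leaving out control replicate 1 gave -0.42, and leaving out control replicate 2 gave -0.72. The VMP1 relative epg-3 had a value of -0.29 (95% interval -0.54 to -0.04, adjusted p = 0.0525), and -0.35 without control replicate 2 (adjusted p = 0.0243).

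All 7 genes of the conjugation system had values below 0, and 4 of them (57.1%) fell. Of all 27 genes, 88.9% had values below 0 and 40.7% fell. Over tested rows with a mean of 100 or more these shares were 57.5% and 31.6%, and over all tested rows 49.7% and 20.4%. The largest decrease of the whole machinery was that of lgg-3 (WBGene00002982, chromosome III, 5697494 to 5698013), the worm Atg12 gene, from 421 and 437 to 253 and 220.2 normalized counts (log2 fold change -0.86 with an SE of 0.20, DESeq2 adjusted p = 0.000117). The E2-like enzyme gene atg-3 (WBGene00021922, chromosome IV, 1010512 to 1012502), whose product hands Atg8 to lipid, fell from 1139 and 1148 to 749 and 735 (-0.62, SE 0.15, DESeq2 adjusted p = 0.000141). Both groups were tight for atg-3, with a pooled within-group SD of 0.015 on the log2 scale. Without eggd-1 replicate 2, lgg-3 (-0.76, adjusted p = 0.059) and atg-3 (-0.61, adjusted p = 0.0575) lay just outside the threshold. The E1-like gene atg-7 (WBGene00010882, chromosome IV, 11078682 to 11081055) fell from 1571 and 1554 to 1289 and 1196 (-0.33, SE 0.14, DESeq2 adjusted p = 0.0439), a call that was lost in each fit without a library (-0.39 to -0.27). It was also lost with library totals as size factors (DESeq2 adjusted p = 0.0598), without independent filtering (0.0672) and with the replicate block (0.113). For atg-5, the acceptor of LGG-3, the value was -0.22 (95% interval -0.54 to 0.10). The second E2-like gene, atg-10, was the least abundant, with 41.5 and 29.3 normalized counts in the control and 26.5 and 15.9 in the mutant. Before normalization it had 41 counts in each control library and 24 and 13 in the mutant libraries. At that depth its interval was wide (-1.86 to 0.41), and a difference was not detectable.

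The paralogues atg-16.1 and atg-16.2 encode the scaffold that places the conjugation machinery on the membrane. Transcript of atg-16.2 (WBGene00019427, chromosome II, 6450889 to 6453391) fell from 565 and 545 to 407 and 405 normalized counts (log2 fold change -0.45, SE 0.17, DESeq2 adjusted p = 0.027), and the call was lost in each fit without a library (-0.50 to -0.44). For atg-16.1 the libraries had 409 and 392 in the control and 276 and 320.5 in eggd-1 (-0.43, SE 0.20), which did not pass by DESeq2 (adjusted p = 0.07) and did by edgeR (-0.40, adjusted p = 0.0198). The log2 ratio of atg-16.1 to atg-16.2 was -0.47 in both control libraries and -0.56 and -0.34 in the eggd-1 libraries, so the groups overlapped. For the Atg8 proteases neither gene passed. For atg-4.1 there were 919 and 894 normalized counts in the control and 750 and 717 in eggd-1 (-0.31, 95% interval -0.60 to -0.01, adjusted p = 0.0963), and for atg-4.2 there were 301 and 254 against 238 and 261 (-0.15, 95% interval -0.58 to 0.27). Their log2 ratio was 1.61 and 1.81 in the control and 1.66 and 1.46 in eggd-1, again overlapping.

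The Atg8 proteins are the membrane marks that cargo receptors recognize. Worms have a GABARAP-like protein, LGG-1, and an LC3-like protein, LGG-2. Transcript of lgg-1 (WBGene00002980, chromosome II, 6346960 to 6347719) fell from 9303 and 7226 normalized counts to 5536 and 4654 (log2 fold change -0.70 with an SE of 0.15, DESeq2 adjusted p = 3.28e-05). The libraries of each group differed, with control replicate 1 the highest. Without control replicate 1 the value was -0.51 (adjusted p = 0.000423), and without eggd-1 replicate 2 it was -0.57 and no longer past the threshold (adjusted p = 0.0588). Transcript of lgg-2 had 2400 and 2549 in the control and 2158 and 1895 in eggd-1 (-0.29, 95% interval -0.55 to -0.02, adjusted p = 0.077). Without control replicate 1 its value was -0.34 (adjusted p = 0.0499). The log2 ratio of lgg-1 to lgg-2 was 1.95 and 1.50 in the control libraries and 1.36 and 1.30 in the eggd-1 libraries. It was lower in eggd-1 in both libraries, by 0.40 on average, but its SD in the control was 0.32, and an exact permutation test of 2 against 2 libraries cannot give a p below 0.333. Per exon length, lgg-1 was 4.86-fold above lgg-2 in the control and 3.68-fold above it in eggd-1.

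The cargo genes went opposite ways. SQST-1, the worm relative of mammalian p62, is a receptor for ubiquitin-bearing aggregates and is itself degraded by autophagy. Its gene (WBGene00011737, chromosome IV, 12034282 to 12036891) rose from 947 and 1220 normalized counts to 1627 and 1451 (log2 fold change 0.50 with an SE of 0.16, DESeq2 adjusted p = 0.00663). The groups did not overlap, but control replicate 1 was low, and the value was 0.32 without it (adjusted p = 0.102) and 0.68 without control replicate 2. The call was also lost without either eggd-1 library, with values of 0.41 and 0.59. EPG-2 is a nematode coiled-coil protein that guides germ granule proteins to autophagy in the somatic cells of embryos. Transcript of epg-2 (WBGene00021468, chromosome I, 2300086 to 2302813) fell from 2684 and 2909 to 1738 and 1591 (-0.75, SE 0.13, DESeq2 adjusted p = 2.92e-07), and like bec-1 it passed the threshold under all 11 alternatives, with values from -0.82 to -0.68. The summed zygotic embryo markers, given above, were lower in the same libraries, and their part in the epg-2 value was not tested. At the last step, epg-5, which encodes a tether between autophagosomes and lysosomes, had 3136 and 2950 in the control and 2598 and 2681 in eggd-1 (-0.20, 95% interval -0.45 to 0.04).

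**Figure D4:**
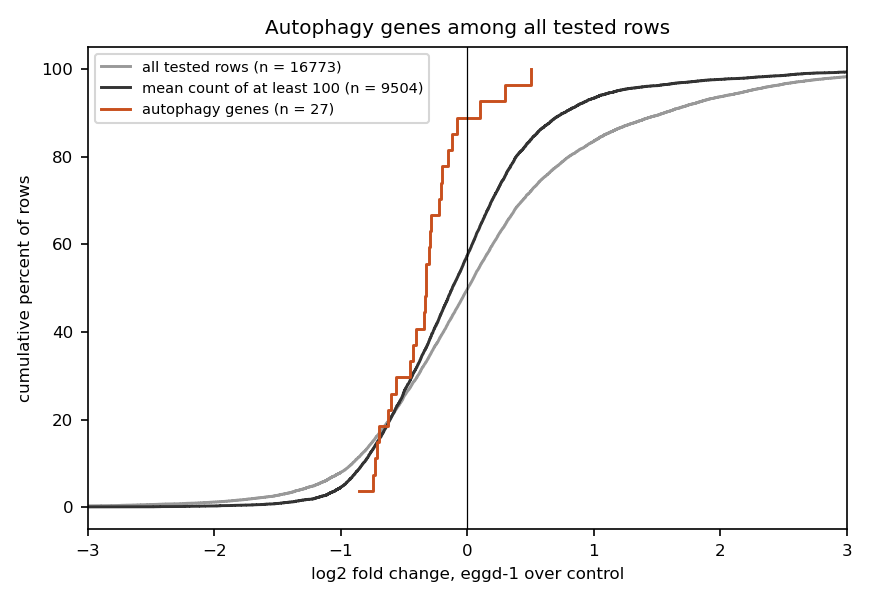
Cumulative percent of rows against the log2 fold change, eggd-1 over control, for the 27 autophagy genes, for the 16773 tested rows and for the 9504 tested rows whose mean was 100 or more, with the axis limited to values between -3 and 3. The curve of the autophagy genes is steep and reaches 88.9% at 0, where the other curves are at 49.7% and 57.5%.

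The deposited table also assigns genes to germline expression classes and to targets of small RNA pathways. Of the 27 autophagy genes, 15 (55.6%) were in the Oogenic class and 17 (63%) in the CSR1 class, which held 10.8% and 26% of the 15314 tested protein-coding genes. Either class held 24 of the genes, and all 11 that fell were among them. Those 24 had a median log2 fold change of -0.34. Over all tested protein-coding genes in either class, the median was -0.23 and 38.2% fell, and outside them it was 0.25 and 12.8% fell. The 11 of 24 that fell were thus closer to the share of their classes than to that of all rows. Taken singly, 6 of the 15 Oogenic genes and 7 of the 17 CSR1 genes fell. Medians of the autophagy genes inside and outside the class were -0.34 and -0.30 for Oogenic, and -0.33 and -0.38 for CSR1. The part of the classes in these changes was not tested. The WAGO4 class held 14 of the 27 genes (51.9%, against 30.3%), MUT16 held epg-2 and sqst-1, and epg-2 was also in HRDE1 and PRG1. The 3 genes outside both were sqst-1, atg-4.2 and epg-5, and epg-5 was the only one listed as Spermatogenic, a class with a median of 1.05. By location the genes were dispersed, with 5 on chromosome I, 4 on II, 5 on III, 7 on IV, 3 on V and 3 on X.

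Other genes of the pathway, outside the naming rule, were taken from 4 lists. Of 48 listed genes found in the table, 46 received an adjusted p-value, with 6 (13%) higher, 14 (30.4%) lower and a median log2 fold change of -0.20. Over tested rows with a mean of 100 or more, 18.9% were higher and 31.6% lower, and over all tested rows 18.6% and 20.4%. The share of listed genes that fell was thus close to that of rows with a mean of 100 or more. The 2 listed genes without an adjusted p-value, sqst-3 and sqst-4, had 0 counts in every library, which allows up to 3 counts in each. Among 17 regulators, 3 (17.6%) rose and 6 (35.3%) fell (median -0.12). The gene hlh-30 (WBGene00020930) rose from 1816 and 1876 to 2393 and 2397 normalized counts (0.38, SE 0.13, DESeq2 adjusted p = 0.0117). Its groups did not overlap and its libraries agreed closely, although without either eggd-1 library nearly the same fold change (0.37 and 0.38) was outside the threshold (adjusted p = 0.251 and 0.226). A noncoding RNA gene overlaps it on the same strand. The nuclear receptor gene nhr-62, required for longevity under dietary restriction, rose by 0.98 (SE 0.29) from 84.0 and 80.8 to 156 and 169 normalized counts. It was between 0.92 and 1.03 in the 4 fits without a library, and past the threshold in the one without control replicate 1. Genes of the small GTPases that switch on the TOR kinase were lower, namely ragc-1 (-0.73, SE 0.13), raga-1 (-0.42, SE 0.13) and rheb-1 (-0.81, SE 0.16), as was nprl-2 (-0.41, SE 0.14), whose relatives act against TOR. Other listed TOR pathway genes, named after their values were seen, did not pass, namely let-363 (-0.12), daf-15 (-0.15), rsks-1 (0.10), flcn-1 (0.20) and nprl-3 (-0.04). Under all 11 alternatives ragc-1 and rheb-1 stayed past the threshold. Without either eggd-1 library raga-1 (-0.38 and -0.46) and nprl-2 (-0.41 and -0.40) did not. Neither did nprl-2 without control replicate 1 (-0.33) or with the replicate block (DESeq2 adjusted p = 0.0529). The other regulators past the threshold, named after their values were seen, were daf-16 (0.38), aak-1 (-0.39) and pha-4 (-0.43). Without control replicate 1 or either eggd-1 library none of these 3 passed, with daf-16 at 0.22 without control replicate 1, and pha-4 did not pass without control replicate 2 either (-0.35). With the replicate block aak-1 (DESeq2 adjusted p = 0.0639) and pha-4 (0.118) did not pass. Nor did pha-4 with library totals as size factors (0.0527) or without independent filtering (0.0704).

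Fusion and tethering genes included 1 (6.25%) that rose and 6 (37.5%) that fell among 16 (median -0.25). Among tested rows with a mean of 100 or more, 18.9% rose and 31.6% fell, and among all tested rows 18.6% and 20.4%. Those that fell were arl-8, a lysosomal GTPase gene (2886 and 2839 against 1772 and 1763 normalized counts, log2 fold change -0.70 with an SE of 0.13, DESeq2 adjusted p = 5.98e-07), the Rab regulators sand-1 (-0.63) and ccz-1 (-0.43), the SNARE genes vamp-7 (-0.65) and vti-1 (-0.73), and cup-5 (-0.50), the mucolipin relative of the lysosomal membrane. The gene that rose was vps-18 (0.35, SE 0.14, DESeq2 adjusted p = 0.0378), a tethering complex subunit that was named after its value was seen. It was outside the threshold without independent filtering (DESeq2 adjusted p = 0.0579) and with the replicate block (DESeq2 adjusted p = 0.081). The call of vps-18 was also lost without control replicate 1 (0.25), without eggd-1 replicate 1 (0.41) and without eggd-1 replicate 2 (0.28). Of the 6 that fell, arl-8 passed in all 4 fits without a library. Values of the other 5 in these fits ran from -0.89 to -0.34. Without eggd-1 replicate 1 sand-1, ccz-1, cup-5 and vti-1 did not pass, without eggd-1 replicate 2 vamp-7, ccz-1 and cup-5, and without control replicate 1 ccz-1 and vti-1. The 9 others ranged from -0.27 to 0.16. Of the 3 measured genes for PI3P synthesis and turnover, only vps-15 passed the threshold.

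Among the receptors and substrates, 1 of 10 tested genes (10%) rose and 2 (20%) fell (median -0.23). The shares were 18.9% and 31.6% for tested rows with a mean of 100 or more, and 18.6% and 20.4% for all tested rows. The genes that fell were fndc-1, a mitophagy receptor gene (919 and 875 against 488 and 440 normalized counts, log2 fold change -0.95, SE 0.16, DESeq2 adjusted p = 8.19e-08), and allo-1, whose product marks paternal organelles for removal in the fertilized egg (4041 and 3324 against 2279 and 2265, -0.70, SE 0.14, DESeq2 adjusted p = 6.03e-06). The P granule gene pgl-1, whose protein is an autophagy substrate in embryos and which carries the tag in the control and is also among the germ line markers, rose by 0.52 (SE 0.12), and by 0.44 without eggd-1 replicate 2, where it did not pass (adjusted p = 0.111). Both fndc-1 and allo-1 passed under all 11 alternatives. The receptor gene sepa-1 had 555 and 731 normalized counts in the control and 608 and 501 in eggd-1. Its groups overlapped (log2 fold change -0.22, 95% interval -0.59 to 0.16).

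**Figure D5:**
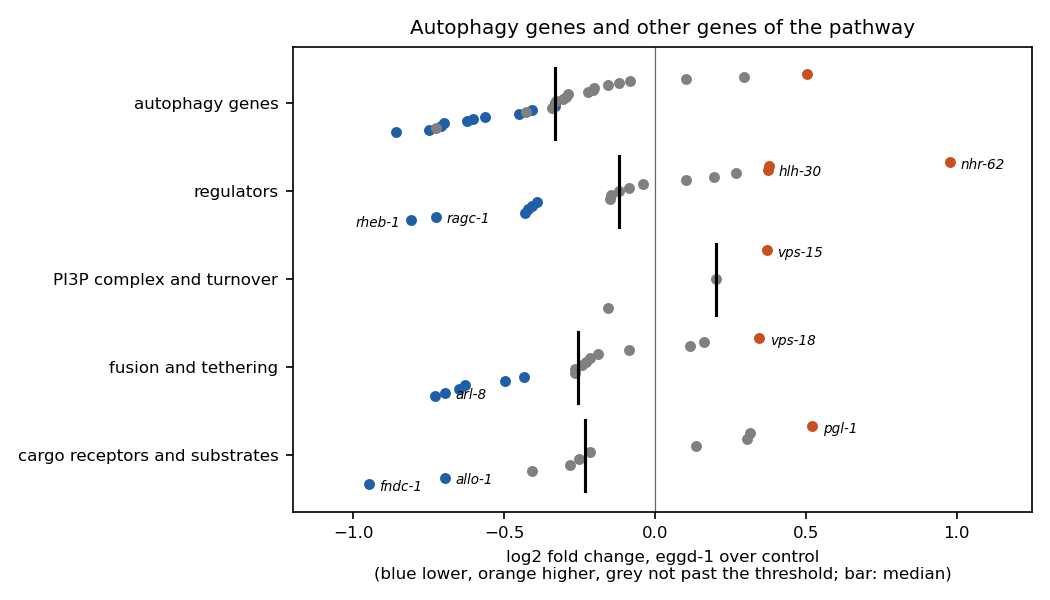
Log2 fold change, eggd-1 over control, of the 27 autophagy genes and of the tested genes of 4 other pathway lists, with a black bar at each list's median. The medians lie at -0.33, -0.12, 0.20, -0.25 and -0.23 from top to bottom, and genes that rose (orange) and fell (blue) stand in the same list for all but the PI3P list.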

How the data were processed

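Directional libraries of total RNA depleted of ribosomal RNA were sequenced as read pairs. Read trimming (TrimGalore) and alignment to WormBase WS279 (STAR) were done by the authors, who removed orphan reads with SAMtools and counted by strand with featureCounts, dividing reads among multiple locations. The deposited values are thus expected counts, not normalized. The 4 columns of the table held the same values as the files of single libraries, and 7 columns that match no sample were not used. None of the 27 genes had fractional counts. Counts were rounded and tested with DESeq2 1.42.0 in R 4.3.3 on all 4 libraries (the authors' tool), with the Wald test, median-of-ratios size factors, independent filtering and Benjamini-Hochberg adjusted p-values read at 0.05. Normalized counts are counts divided by these size factors. Alternatives were edgeR 4.0.16 (quasi-likelihood), other size factors, filters, rounding and shrinkage, a replicate block and leaving out each library. The test was also run on simulated counts, drawn with the spread fitted to these 4 libraries. They cannot show whether that spread is right for 2 libraries a group. Positions and exon lengths came from Ensembl release 115 (WBcel235, the assembly whose gene identifiers the table shares), and the files carry no coordinates. Every gene that met the naming rule was included. Values in each library were given for the genes past the threshold, the Atg8 genes, unc-51, bec-1, sqst-1 and 4 paralogue or partner pairs. Of each other list, at most 6 genes by smallest adjusted p were named, with hlh-30 and sepa-1. Other genes of these lists were named after their values were seen, as stated there. Members and lists were chosen with earlier results of these data known. Promoter and protein sequences were not used here.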

Additional observations from a re-analysis of the deposited data

How the results depend on the processing

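With 2 libraries a group, each call leans on a spread estimated over many genes, and a fit without a library assumes that the lone library varies like the other group. Over the 11 alternatives, 255 of 297 values for the 27 genes kept their sign and their side of the threshold, 32 lost it, 8 gained it and 2 turned sign (without 1 library, atg-2 ran from -0.049 to 0.24 and atg-18 from -0.26 to 0.0062, neither past the threshold). Apart from the replicate block and the fits without a library, 10 of the 12 genes past the threshold stayed past it under all alternatives. The genes that did not were epg-7 and atg-7. Of the 10, bec-1 and epg-2 also stayed past it with the replicate block and in the fits without a library. The number of genes that rose was 2 by edgeR, and the count of lower genes ranged from 9 to 14 over edgeR, size factors, filters, shrinkage and truncation. Library totals gave 2 higher receptor genes, edgeR also 2, and no filtering gave 0 higher fusion genes. 

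Leaving out 1 library at a time gave 0 to 1 higher and 2 to 10 lower autophagy genes, a median of -0.39 to -0.27, 0 to 3 higher and 2 to 5 lower regulators, 0 to 1 higher and 2 to 7 lower fusion genes, 0 to 1 higher PI3P genes and 0 to 2 higher receptor genes. Over the whole table these fits gave 1174 to 2502 higher and 1497 to 2893 lower genes, against 3127 and 3426 with all libraries. A limit of 4-fold left 951 higher and 128 lower genes. The cause of the fewer calls in the fits without a library was not tested.

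The replicate numbers of the titles name libraries and nothing says that they pair them. Deviations of same-numbered libraries from their group means had a correlation of -0.05 over 15192 genes. With the replicate block, 7 autophagy genes were lower, the regulators had 3 lower genes and the fusion genes 0 higher. Over the whole table that fit gave 17.1% lower and 15.5% higher, against 20.4% and 18.6% without the block. No sequence of promoters or proteins was compared, although this had been planned.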
